A study of Mus musculus with 7 samples.

Results

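DNA replication genes were examined in B16 melanoma tumours, as 51 genes chosen by symbol from the 56953 genes of the deposited tables. The 51 genes encode the origin recognition complex, licensing factors, the replicative helicase, the DNA polymerases, the sliding clamp and its loader, the single-strand binding protein RPA, enzymes that join Okazaki fragments and enzymes that supply deoxynucleotides. All 51 were found once each and all 51 passed the filter on low counts. RNA came from B16 tumours, grown from a transplantable mouse melanoma line, in 3 mice given radiotherapy at 8 Gy with the adeno-associated virus vector AAV-iIL12 and 4 mice given the same 8 Gy with the control vector AAV-iLuc. Tumours were taken 5 days after treatment, and live cells lacking the leukocyte marker CD45 and the endothelial marker CD31 were sorted before poly(A) RNA was sequenced. Both groups were irradiated, so the comparison is between vectors and not between radiation doses. The titles of the AAV-iIL12 libraries carry the letters WT, the titles of the AAV-iLuc libraries do not, and the labels give neither the strain or age of the mice nor the promoter that drives either vector.

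Replication begins when the origin recognition complex, with Cdc6 and Cdt1, loads the MCM helicase onto origins in G1 phase. In S phase the kinase Cdc7 with Dbf4 activates the helicase, Cdc45 and GINS join it, and polymerase alpha with primase, polymerase epsilon and polymerase delta copy the strands on the sliding clamp PCNA. Many genes of this machinery are transcribed under E2F factors as cells enter S phase, so in tumours their RNA is widely read as a measure of cycling cells.

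Promoters are shown first because many replication genes are known E2F targets. RefSeq promoter windows of GRCm38.p6, running from 250 bases before to 50 bases after the gene start, were matched for 43 of the 51 genes. An E2F-type word (TTTCCCGC, TTTCGCGC, TTTGCCGC or TTTGGCGC, on either strand) stood in a window of 17 of these 43 genes, or 39.5%, against 481 of 10079 genes tested with a window, or 4.77%. No window was matched for Gmnn, Mcm4, Gins1, Gins2, Gins4, Prim2, Pole and Rfc2. Windows with at least 2 matches belonged to Mcm3, Mcm5, Mcm6, Mcm7 and Rfc3, and these 5 are printed 5′ to 3′ with the matches in capitals. Matches of opposite strands overlapped in Mcm5 and Mcm6 and run together there.
Mcm3, chr1:20820263-20820562 (reverse strand): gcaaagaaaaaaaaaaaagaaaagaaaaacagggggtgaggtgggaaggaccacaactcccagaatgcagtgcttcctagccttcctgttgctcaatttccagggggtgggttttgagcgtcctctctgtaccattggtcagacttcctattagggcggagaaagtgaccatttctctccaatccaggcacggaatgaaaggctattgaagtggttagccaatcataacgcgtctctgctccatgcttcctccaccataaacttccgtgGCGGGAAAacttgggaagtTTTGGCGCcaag
Mcm5, chr8:75109259-75109558 (forward strand): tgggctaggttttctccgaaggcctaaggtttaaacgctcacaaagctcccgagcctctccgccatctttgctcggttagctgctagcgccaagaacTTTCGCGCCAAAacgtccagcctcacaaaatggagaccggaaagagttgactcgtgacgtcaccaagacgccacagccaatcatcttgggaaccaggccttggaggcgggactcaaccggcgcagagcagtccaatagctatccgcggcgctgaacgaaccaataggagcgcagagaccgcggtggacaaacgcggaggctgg
Mcm6, chr1:128359656-128359955 (reverse strand): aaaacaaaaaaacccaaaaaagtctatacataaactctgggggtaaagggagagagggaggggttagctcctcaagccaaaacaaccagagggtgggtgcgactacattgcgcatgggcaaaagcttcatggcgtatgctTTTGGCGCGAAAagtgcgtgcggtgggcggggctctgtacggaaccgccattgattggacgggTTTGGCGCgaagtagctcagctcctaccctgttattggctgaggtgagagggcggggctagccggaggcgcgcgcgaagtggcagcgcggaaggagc
Mcm7, chr5:138171834-138172133 (reverse strand): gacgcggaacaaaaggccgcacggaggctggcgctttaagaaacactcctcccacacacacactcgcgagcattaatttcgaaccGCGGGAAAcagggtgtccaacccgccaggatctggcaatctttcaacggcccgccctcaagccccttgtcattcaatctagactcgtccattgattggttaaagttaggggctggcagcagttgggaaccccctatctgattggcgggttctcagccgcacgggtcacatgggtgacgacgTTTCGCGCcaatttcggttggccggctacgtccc
Rfc3, chr5:151651159-151651458 (reverse strand): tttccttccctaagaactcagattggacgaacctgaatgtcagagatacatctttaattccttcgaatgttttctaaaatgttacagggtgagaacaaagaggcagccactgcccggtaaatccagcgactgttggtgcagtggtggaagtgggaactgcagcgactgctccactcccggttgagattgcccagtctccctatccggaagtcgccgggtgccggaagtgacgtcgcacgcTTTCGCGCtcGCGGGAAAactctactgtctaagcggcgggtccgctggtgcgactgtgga
Among these 5 genes the 4 MCM genes fell in AAV-iIL12 and Rfc3 did not pass the test, as described with their complexes. A word was found for 14 of 36 windowed genes that fell and for 3 of the 7 that did not fall. With the same genes split by size of fall, it was found for 13 of 26 at least 2-fold lower and 4 of the 17 others. These shares, 50.0% and 23.5%, rest on few genes, and their difference was not tested. Counting only the 250 bases before the start, they were 26.9% and 17.6%. CCAAT, the letters of an NF-Y box, stood in a window of 25 of the 43 genes (58.1%) and of 43.2% of genes tested with a window. In the 250 bases before the start alone, an E2F-type word stood in 23.3% of the 43 genes and 3.96% of genes tested with a window. A match of letters is a description and not a measured binding site.

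Libraries held between 16356653 and 19080587 counts, and single replication genes had between 38 counts (Orc1 in AAV-iIL12 replicate 1) and 7563 counts (Mcm2 in AAV-iLuc replicate 4). The tumour identity of the sort was checked on marker lists. The 7 melanocyte markers summed to between 27850 and 28740 CPM in AAV-iIL12 and between 22840 and 25990 CPM in AAV-iLuc. In edgeR 3 of 7 were called higher (Pmel, Mlana and Mitf) and 0 lower, where 23.5% of all tested genes rose and 23.7% fell. Endothelial Cdh5, Tie1 and Emcn were at 0 in every library, and Pecam1, which encodes CD31, had at most 4 counts in AAV-iIL12 and 7 in AAV-iLuc. The 7 endothelial markers summed to between 15.2 and 26.7 CPM in AAV-iIL12 and between 19.4 and 24.9 CPM in AAV-iLuc. Nearly all of this was Vwf, with 240 to 484 counts in AAV-iIL12 and 323 to 479 in AAV-iLuc, which did not pass (edgeR adjusted p = 0.692). Ptprc, which encodes CD45, had 19 to 45 counts in AAV-iIL12, 47 in AAV-iLuc replicate 1 and at most 8 in the other AAV-iLuc libraries. The 14 leukocyte markers, none at 0 everywhere, summed to between 6.26 and 10.1 CPM in AAV-iIL12. In AAV-iLuc the sum was 14.8 CPM for replicate 1 and 1.49 to 3.20 CPM for the remaining 3 mice. Of the 5 leukocyte markers tested 0 passed in edgeR, 0 had an unadjusted p under 0.05, 0 passed in DESeq2 and 2 passed in limma-voom. With the log2 of the summed leukocyte level as a covariate 42 replication genes fell. The 7 fibroblast markers summed to between 56.7 and 155 CPM in AAV-iIL12 and between 82.3 and 288 CPM in AAV-iLuc, and 0 of 7 passed in edgeR, in DESeq2 or in limma-voom or had an unadjusted p under 0.05.

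Replication genes were lower in AAV-iIL12 tumours across nearly every complex. Of the 51 genes 44 fell, 1 rose and 6 did not pass (quasi-likelihood F test of edgeR, p adjusted by Benjamini-Hochberg over the 13990 genes tested, threshold 0.05), where 23.7% of all tested genes fell and 23.5% rose. Of all calls 49.8% were higher, against 36.0% under library size only and 38.5% under upper quartile scaling, where 47 of the 51 genes fell. The median log2 fold change, AAV-iIL12 over AAV-iLuc, was -1.31 over the 51 genes and -0.01 over all genes tested. At least 2-fold falls were called for 32 of the 51 genes and for 4.67% of all genes. Every AAV-iIL12 library stood below every AAV-iLuc library for 45 of the 51, which was the case for 26.7% of all genes. The reverse held for 2 of the 51 (Orc4 and Pold4) and for 25.9% of all genes. In RNA of bulk sorted cells, fewer cells in S phase and less RNA per cell cannot be told apart.

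**Figure D1:**
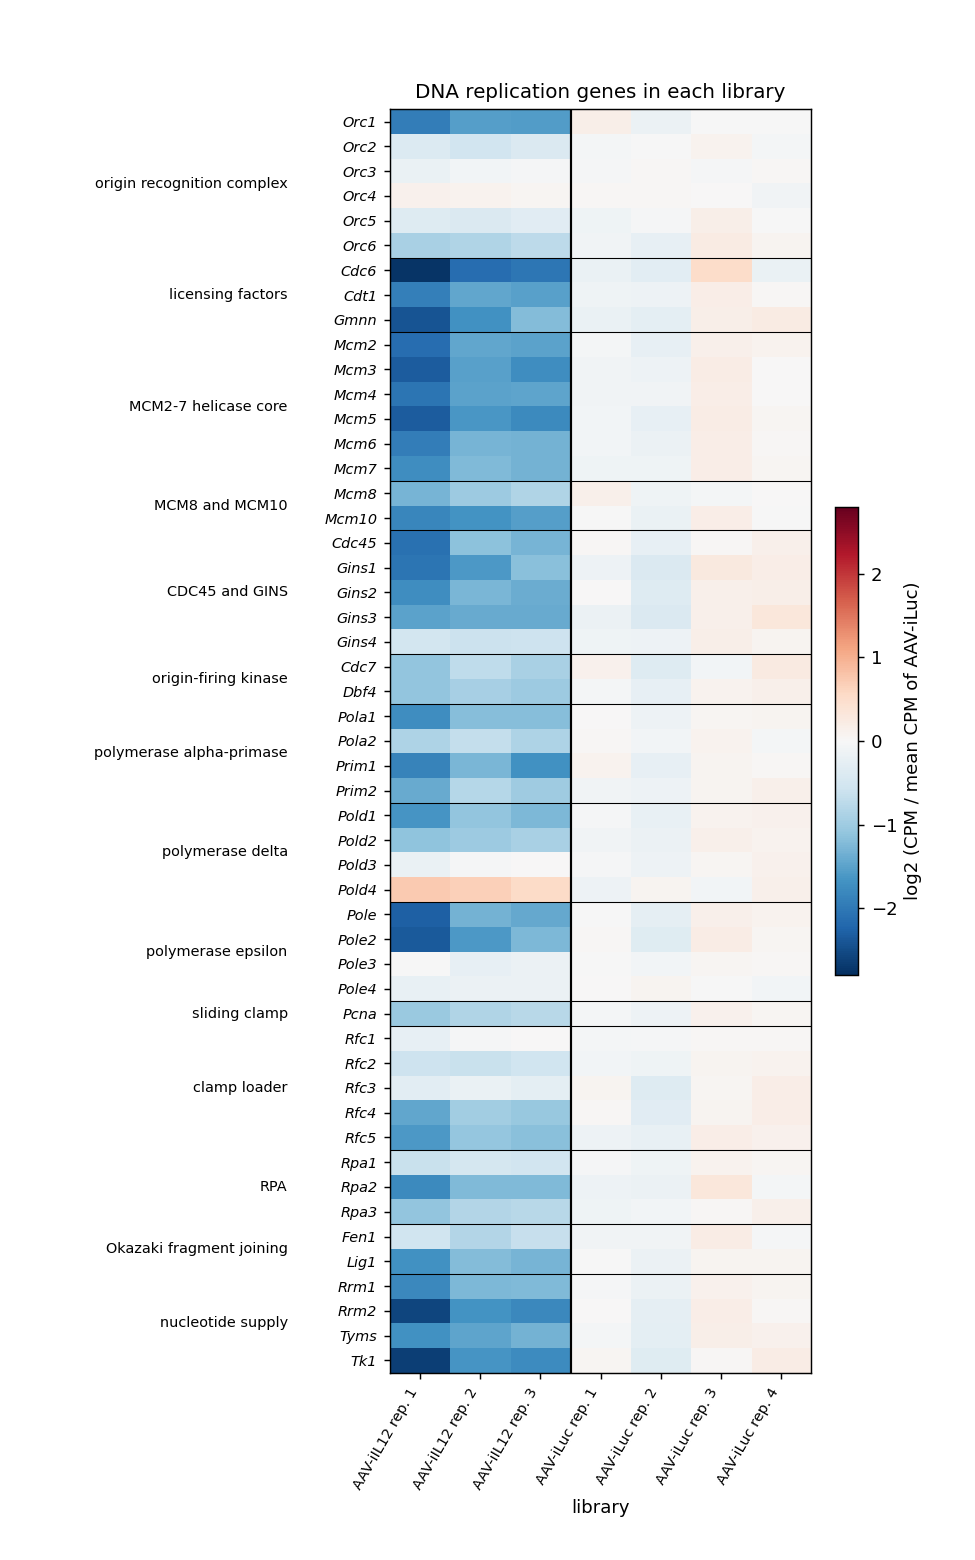
Log2 ratio of the CPM of each of the 51 replication genes (rows, by complex) in each library (columns, 3 AAV-iIL12 left and 4 AAV-iLuc right of the line) to the AAV-iLuc mean of that gene. Blue cells fill the AAV-iIL12 columns except for Orc3, Orc4, Pold3, Pole3, Pole4, Rfc1 and Rfc3, which stay near white, and Pold4, which is red.

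The libraries of a group did not stand equally far from the other group. The median replication gene was at 32.9%, 46.6% and 44.4% of its AAV-iLuc mean in AAV-iIL12 replicates 1, 2 and 3, against 96.8%, 89.0%, 108% and 105% in AAV-iLuc replicates 1, 2, 3 and 4. AAV-iIL12 replicate 1 was thus the lowest library, and it held the lowest of the 7 values for 41 of the 51 genes. Without it 43 genes fell and the median log2 fold change was -1.17. AAV-iLuc replicate 1, the control library with the most leukocyte RNA, was not the lowest control: replicate 2 held the lowest control value for 41 genes. Among AAV-iIL12 libraries, replicate 1 had the highest leukocyte sum (10.1 CPM, against 8.91 and 6.26 CPM in replicates 2 and 3). A link between the leukocyte sum and the replication genes within a group was not tested. Without AAV-iLuc replicate 1, 44 genes fell and the median was -1.32. The coefficient of variation between libraries had a median of 15.6% in AAV-iIL12 and 10.3% in AAV-iLuc over the 51 genes.

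All 3 licensing factors fell, with a median log2 fold change of -1.69. Cdc6 (ENSMUSG00000017499, chromosome 11, 98798627 to 98814766, GRCm39), the ATPase that joins the origin complex to recruit the helicase, showed the largest fall of all 51. Its level was 4.02, 6.19 and 6.65 CPM in the AAV-iIL12 libraries, against 23.9, 22.1, 38.5 and 23.6 CPM in the AAV-iLuc libraries (log2 fold change -2.25 ± 0.24, adjusted p = 4.46e-05). The groups were far apart, and AAV-iLuc replicate 3 stood above the other controls. Cdt1, which escorts the MCM ring to origins, was the most abundant of the 3 per length, with a mean of 25.0 ± 4.51 TPM in AAV-iIL12 tumours, against 83.4 ± 8.89 TPM in AAV-iLuc tumours (SD, n = 3 and 4). In TMM-scaled CPM it reached 17.6, 24.3 and 23.1 CPM in the AAV-iIL12 libraries, against 61.4, 60.7, 76.1 and 68.1 CPM in the AAV-iLuc libraries (log2 fold change -1.62 ± 0.12, adjusted p = 6.48e-06). No Cdt1 value of one group reached those of the other. Gmnn encodes geminin, the inhibitor that binds Cdt1 after origins have fired. It fell too, with a mean of 5.38 ± 2.09 CPM in AAV-iIL12 tumours, against 17.4 ± 2.91 CPM in AAV-iLuc tumours (log2 fold change -1.69 ± 0.23, adjusted p = 2.30e-04).

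The origin recognition complex, which marks origins through the cycle, was split. Of its 6 genes 4 fell and 2 did not pass. Orc1 (ENSMUSG00000028587, chromosome 4, 108436620 to 108472030), the subunit known in human cells to be degraded as S phase begins, fell far more than the other subunits by point estimate. It stood at 2.32, 3.04 and 3.02 CPM in the AAV-iIL12 libraries, against 9.98, 7.90, 8.87 and 8.81 CPM in the AAV-iLuc libraries (log2 fold change -1.66 ± 0.15, adjusted p = 1.70e-05). Orc1 was also the subunit with the fewest counts. Orc2, the most abundant subunit per length, had 54.8, 49.7 and 54.2 CPM in the AAV-iIL12 libraries, against 68.8, 71.4, 77.0 and 69.3 CPM in the AAV-iLuc libraries, a log2 fold change of -0.44 (adjusted p = 2.60e-04). Orc6 and Orc5 fell as well, with log2 fold changes of -0.83 and -0.36. With the leukocyte covariate the Orc5 call ended (edgeR adjusted p = 0.0512). Orc3 had 41.2, 44.7 and 45.8 CPM in the AAV-iIL12 libraries, against 46.0, 48.0, 46.3 and 48.2 CPM in the AAV-iLuc libraries. Its groups just failed to overlap, and it did not pass (adjusted p = 0.181). Under upper quartile scaling and under library size only Orc3 was called lower (edgeR adjusted p = 0.0321 and 0.021). Orc4 had 62.3, 61.9 and 59.6 CPM in the AAV-iIL12 libraries, against 59.0, 59.1, 57.9 and 53.8 CPM in the AAV-iLuc libraries. The Orc4 groups just failed to overlap too, with AAV-iIL12 higher, and it did not pass either (edgeR adjusted p = 0.183).

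All 6 genes of the MCM2 to MCM7 ring, the motor of the replicative helicase, fell. Their log2 fold changes spanned -1.88 (Mcm5) to -1.41 (Mcm7), a narrow range beside that of the origin complex. Mcm2 (ENSMUSG00000002870, chromosome 6, 88860456 to 88875762), the most abundant per length, had 83.3, 133 and 129 CPM in the AAV-iIL12 libraries, against 353, 313, 405 and 389.8 CPM in the AAV-iLuc libraries (log2 fold change -1.66 ± 0.16, adjusted p = 2.54e-05). Per length this was a mean of 60.1 ± 15.3 TPM in AAV-iIL12 tumours, against 206 ± 24.1 TPM in AAV-iLuc tumours. Mcm5 (ENSMUSG00000005410, chromosome 8, 75836197 to 75855067), the subunit with the largest fall, had 25.1, 40.8 and 36.6 CPM in the AAV-iIL12 libraries, against 121, 108, 147 and 131 CPM in the AAV-iLuc libraries (log2 fold change -1.88 ± 0.16, adjusted p = 1.11e-05). In both genes AAV-iIL12 replicate 1 was lowest and AAV-iLuc replicate 3 highest. The log2 fold changes of Mcm3, Mcm4, Mcm6 and Mcm7 were -1.83, -1.64, -1.49 and -1.41. Within a library the most abundant of the 6 RNAs exceeded the least abundant by 1.87-fold to 2.03-fold in AAV-iIL12 and by 1.92-fold to 2.16-fold in AAV-iLuc, in TPM. Mcm10, a helicase activator needed to start forks, had 13.6, 15.2 and 16.5 CPM in the AAV-iIL12 libraries, against 47.8, 42.7, 54.9 and 48.3 CPM in the AAV-iLuc libraries (log2 fold change -1.68 ± 0.10, adjusted p = 2.44e-06). Every AAV-iIL12 value of Mcm10 lay far below the lowest AAV-iLuc value. Mcm8, a paralogue known for its part in homologous recombination, fell with a log2 fold change of -1.04.

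Cdc45 and the 4 GINS genes, whose products complete the active helicase, fell in 5 of 5 cases. Gins1 had 2.44, 3.31 and 4.50 CPM in the AAV-iIL12 libraries, against 9.15, 7.62, 12.2 and 11.5 CPM in the AAV-iLuc libraries (log2 fold change -1.56 ± 0.23, adjusted p = 3.49e-04). Gins4, the most abundant of them per length, fell least, with 19.4, 18.2 and 18.6 CPM in the AAV-iIL12 libraries, against 25.5, 25.4, 31.0 and 29.4 CPM in the AAV-iLuc libraries (log2 fold change -0.57 ± 0.09, adjusted p = 5.63e-04). Both genes had groups that did not overlap. Cdc45, Gins2 and Gins3 had log2 fold changes of -1.45, -1.45 and -1.43. Exons of Gins2 lie opposite exons of Gse1, which the strand-aware counting keeps apart. The kinase that fires origins fell as well. Its regulatory subunit Dbf4 had 22.9, 25.6 and 24.3 CPM in the AAV-iIL12 libraries, against 47.4, 41.9, 52.4 and 54.2 CPM in the AAV-iLuc libraries (log2 fold change -1.01 ± 0.10, adjusted p = 2.43e-05), and the catalytic Cdc7 had a log2 fold change of -0.89.

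**Figure D2:**
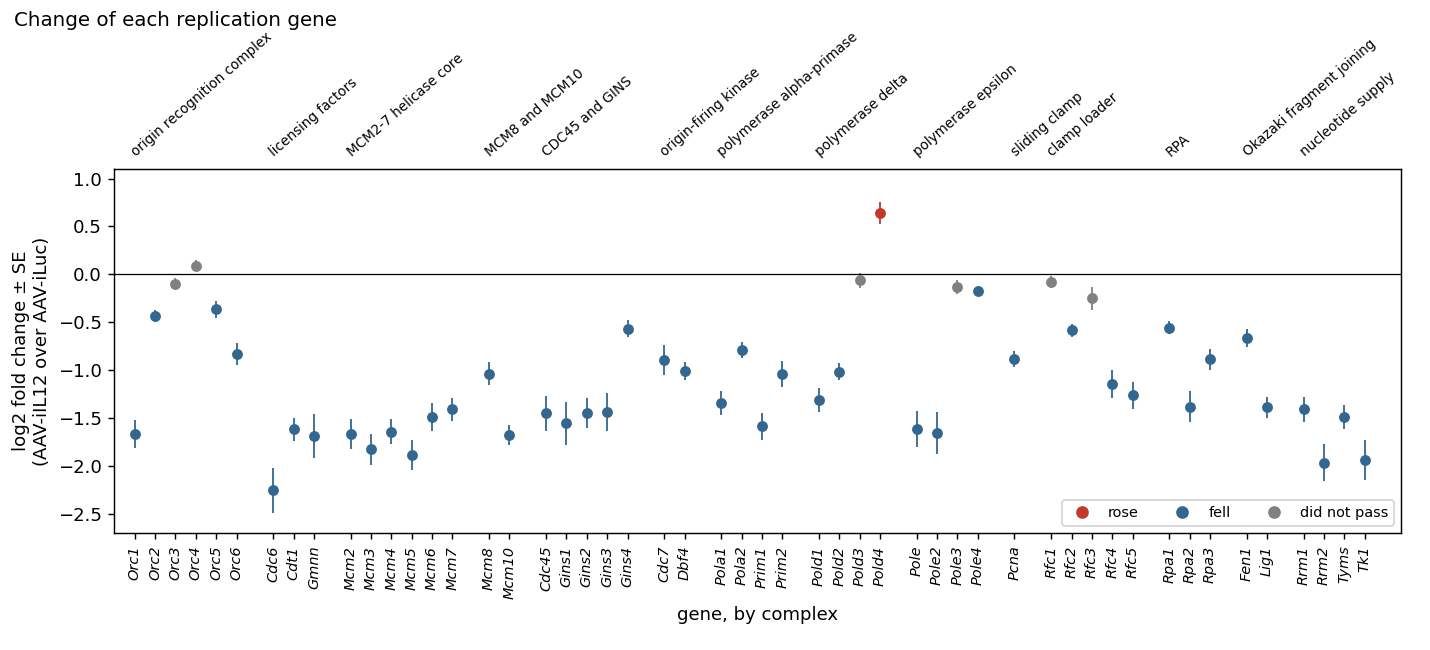
Log2 fold change (AAV-iIL12 over AAV-iLuc, edgeR) of each of the 51 genes with its standard error, ordered by complex and coloured by call. The MCM2 to MCM7 genes lie between -1.88 and -1.41, while the genes of the origin complex, polymerase delta, polymerase epsilon and the clamp loader are spread more widely, with Pold4 at 0.64.

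Polymerase alpha and its primase, which start each new strand with a short RNA and DNA primer, fell in 4 of 4 cases. Prim1, the catalytic primase subunit, had 7.25, 10.9 and 8.19 CPM in the AAV-iIL12 libraries, against 28.2, 22.6, 27.7 and 27.2 CPM in the AAV-iLuc libraries (log2 fold change -1.59 ± 0.14, adjusted p = 1.52e-05). It showed the largest fall of the 4. Its mean of 8.22 TPM in AAV-iIL12 was the third of the 4, while 26.9 TPM in AAV-iLuc was the highest. Pola1, Prim2 and Pola2 followed with log2 fold changes of -1.35, -1.04 and -0.79.

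Polymerase delta, which copies the lagging strand, moved in different directions by subunit. The catalytic Pold1 had 19.6, 28.7 and 25.8 CPM in the AAV-iIL12 libraries, against 60.1, 53.6, 65.7 and 67.0 CPM in the AAV-iLuc libraries (log2 fold change -1.31 ± 0.13, adjusted p = 2.54e-05). Pold2, an accessory subunit and the most abundant per length, had 20.8, 22.5 and 24.3 CPM in the AAV-iIL12 libraries, against 42.8, 40.7, 50.0 and 48.9 CPM in the AAV-iLuc libraries (log2 fold change -1.02 ± 0.09, adjusted p = 1.97e-05). Neither gene had overlapping groups. Pold3, a subunit that binds PCNA, had 36.7, 40.7 and 41.9 CPM in the AAV-iIL12 libraries, against 40.5, 37.4, 43.2 and 45.1 CPM in the AAV-iLuc libraries. The groups of Pold3 overlapped and it did not pass (adjusted p = 0.546). Pold4 (ENSMUSG00000024854, chromosome 19, 4281953 to 4283688) encodes the smallest subunit, known in human cells to be degraded after DNA damage and in S phase. It was the one gene of the 51 that rose. Its level was 10.8, 10.3 and 9.34 CPM in the AAV-iIL12 libraries, against 5.88, 6.80, 6.13 and 7.11 CPM in the AAV-iLuc libraries (log2 fold change 0.64 ± 0.11, edgeR adjusted p = 0.00106). Every AAV-iIL12 library lay above every AAV-iLuc library, and Pold4 remained called higher in all 16 alternative fits. Its counts were low, at most 189 per library, and 24.6% of its exon bases are shared on the same strand with another annotated gene that had 0 counts.

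Polymerase epsilon, which copies the leading strand, was split as well, with 3 of 4 genes lower. Pole2, a core subunit, had 3.17, 5.32 and 6.81 CPM in the AAV-iIL12 libraries, against 16.6, 12.8, 18.6 and 16.8 CPM in the AAV-iLuc libraries (log2 fold change -1.66 ± 0.22, adjusted p = 1.78e-04), and the catalytic Pole had a log2 fold change of -1.62. Both genes were lowest in AAV-iIL12 replicate 1. The histone-fold pair Pole3 and Pole4, of which Pole3 is also a subunit of a chromatin remodelling complex, lay close to their AAV-iLuc levels. Pole4 was the most abundant of the 51 RNAs per length in AAV-iIL12. It had 120.0, 124 and 124 CPM in the AAV-iIL12 libraries, against 140.4, 146, 137 and 131 CPM in the AAV-iLuc libraries (log2 fold change -0.18 ± 0.05, edgeR adjusted p = 0.0174). Per length it had a mean of 177 ± 6.29 TPM in AAV-iIL12 tumours, against 217 ± 8.26 TPM in AAV-iLuc tumours. The Pole4 call ended without AAV-iIL12 replicate 1, 2 or 3 (edgeR adjusted p = 0.0587, 0.0501 and 0.0559), with no low-count filter (0.0548) and with the leukocyte covariate (0.0569). Pole3 had 32.3, 28.0 and 29.2 CPM in the AAV-iIL12 libraries, against 32.7, 31.1, 33.8 and 33.2 CPM in the AAV-iLuc libraries. Its groups overlapped and it did not pass (adjusted p = 0.151), although under upper quartile scaling and under library size only it was called lower (edgeR adjusted p = 0.0327 and 0.0265).

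**Figure D3:**
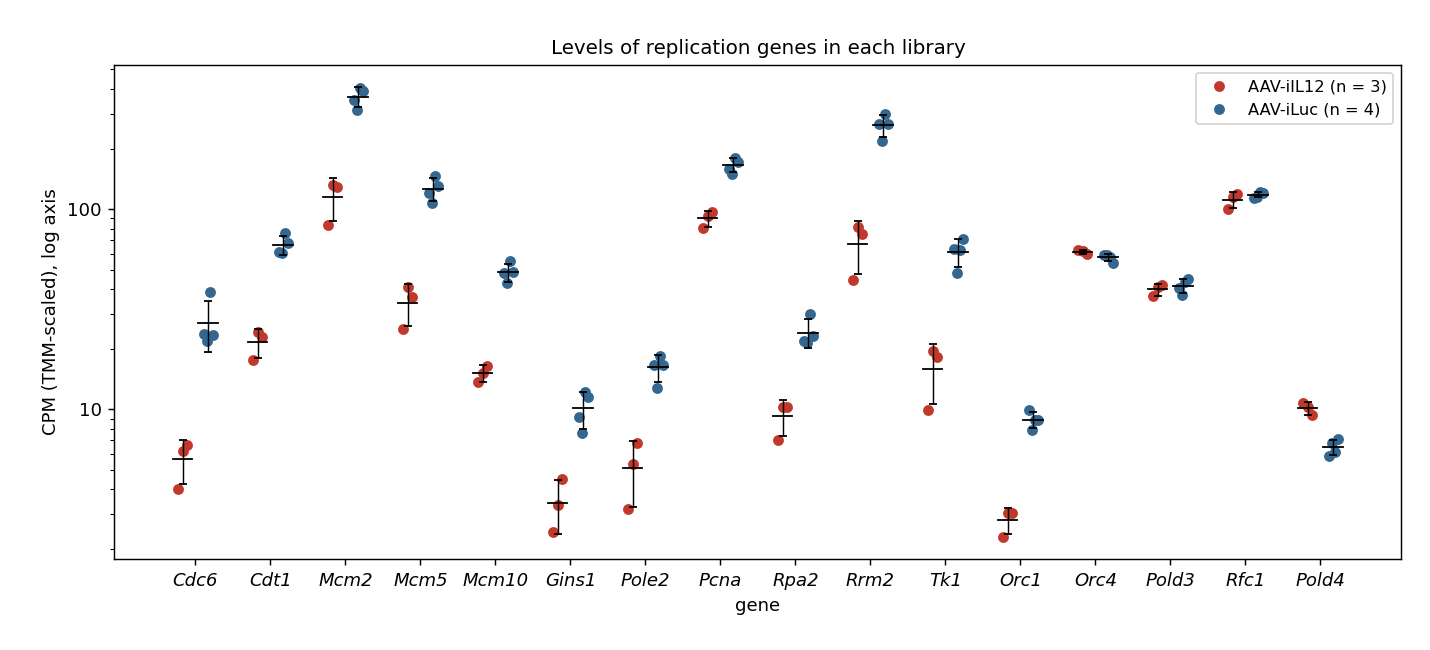
TMM-scaled CPM on a log axis of 16 replication genes, each point 1 library, with AAV-iIL12 left (n = 3) and AAV-iLuc right (n = 4), and bars for the mean and SD. Cdc6 to Orc1 show groups that do not overlap, with AAV-iIL12 lower. Orc4, Pold3 and Rfc1 sit at about the same level in both groups, although the Orc4 groups just fail to overlap. Pold4 is higher in AAV-iIL12.

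Pcna (ENSMUSG00000027342, chromosome 2, 132091082 to 132095234), the ring that holds polymerases on DNA and that also serves DNA repair, fell less than each of the MCM2 to MCM7 genes by point estimate. It had 81.1, 92.3 and 96.6 CPM in the AAV-iIL12 libraries, against 159.8, 151, 181 and 173 CPM in the AAV-iLuc libraries (log2 fold change -0.88 ± 0.08, adjusted p = 1.93e-05). Per length it was the second most abundant of the 51 RNAs in both groups. Its mean was 136 ± 14.3 TPM in AAV-iIL12 tumours, against 272 ± 22.6 TPM in AAV-iLuc tumours. A processed copy named Pcna-ps2 drew 36 counts over all libraries, against 17004 for Pcna.

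The clamp loader, which opens PCNA and places it on primed DNA, was split, with 3 of 5 genes lower and 2 that did not pass. Rfc5, one of the small subunits shared with other loaders, had 13.7, 19.8 and 18.5 CPM in the AAV-iIL12 libraries, against 37.9, 36.2, 47.3 and 45.6 CPM in the AAV-iLuc libraries (log2 fold change -1.26 ± 0.14, adjusted p = 6.16e-05). Rfc4 and Rfc2, also small subunits, had log2 fold changes of -1.14 and -0.58. Rfc1 (ENSMUSG00000029191, chromosome 5, 65419193 to 65493013), the large subunit that gives the complex its role in replication, had 101, 116 and 119 CPM in the AAV-iIL12 libraries, against 114, 116, 121 and 121 CPM in the AAV-iLuc libraries. It did not pass (adjusted p = 0.345), and it was the most abundant clamp loader RNA per length. Rfc3 had 25.1, 27.0 and 25.3 CPM in the AAV-iIL12 libraries, against 32.3, 23.7, 31.6 and 35.0 CPM in the AAV-iLuc libraries. Its groups overlapped through AAV-iLuc replicate 2, and it did not pass (adjusted p = 0.111). Without AAV-iLuc replicate 2 Rfc3 was called lower (log2 fold change -0.35, edgeR adjusted p = 0.0044), and likewise under upper quartile scaling (0.0458) and library size only (0.0427).

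RPA coats single-stranded DNA as a complex of 3 subunits, and all 3 of its genes fell. Rpa2, the subunit phosphorylated during replication stress, had 7.07, 10.3 and 10.3 CPM in the AAV-iIL12 libraries, against 22.0, 21.5, 30.0 and 23.4 CPM in the AAV-iLuc libraries (log2 fold change -1.38 ± 0.16, adjusted p = 8.37e-05). Rpa1, the large DNA-binding subunit and the most abundant per length, had 178, 194 and 188 CPM in the AAV-iIL12 libraries, against 268, 254, 292 and 284 CPM in the AAV-iLuc libraries (log2 fold change -0.56 ± 0.07, adjusted p = 9.16e-05). Rpa3, the small subunit, had a log2 fold change of -0.89. No RPA gene had overlapping groups. Of the enzymes that finish Okazaki fragments, Lig1, a DNA ligase, had 30.6, 43.0 and 40.4 CPM in the AAV-iIL12 libraries, against 99.3, 88.5, 105 and 105 CPM in the AAV-iLuc libraries (log2 fold change -1.39 ± 0.11, adjusted p = 9.15e-06), and Fen1, the flap endonuclease, had a log2 fold change of -0.67 with exons largely opposite those of another gene.

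Proportions within a complex were described with ratios of TPM within a library, for pairs picked after the values were seen and with no test. Orc1 over Orc4 was 0.0797, 0.105 and 0.109 in the AAV-iIL12 libraries, against 0.363, 0.287, 0.329 and 0.351 in the AAV-iLuc libraries. For Pole2 over Pole3 the ratios were 0.0695, 0.135 and 0.165 in AAV-iIL12, against 0.361, 0.292, 0.390 and 0.357 in AAV-iLuc. Rfc5 over Rfc1 came to 0.176, 0.221 and 0.200 in AAV-iIL12, against 0.427, 0.403, 0.503 and 0.487 in AAV-iLuc. All of these ratios were lower in every AAV-iIL12 library. Pold4 over Pold1 went the other way, at 2.30, 1.49 and 1.51 in AAV-iIL12, against 0.408, 0.530, 0.390 and 0.444 in AAV-iLuc. Cdt1 over its inhibitor Gmnn overlapped between the groups, at 2.50, 2.11 and 1.44 in AAV-iIL12, against 1.86, 1.96, 1.82 and 1.57 in AAV-iLuc.

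**Figure D4:**
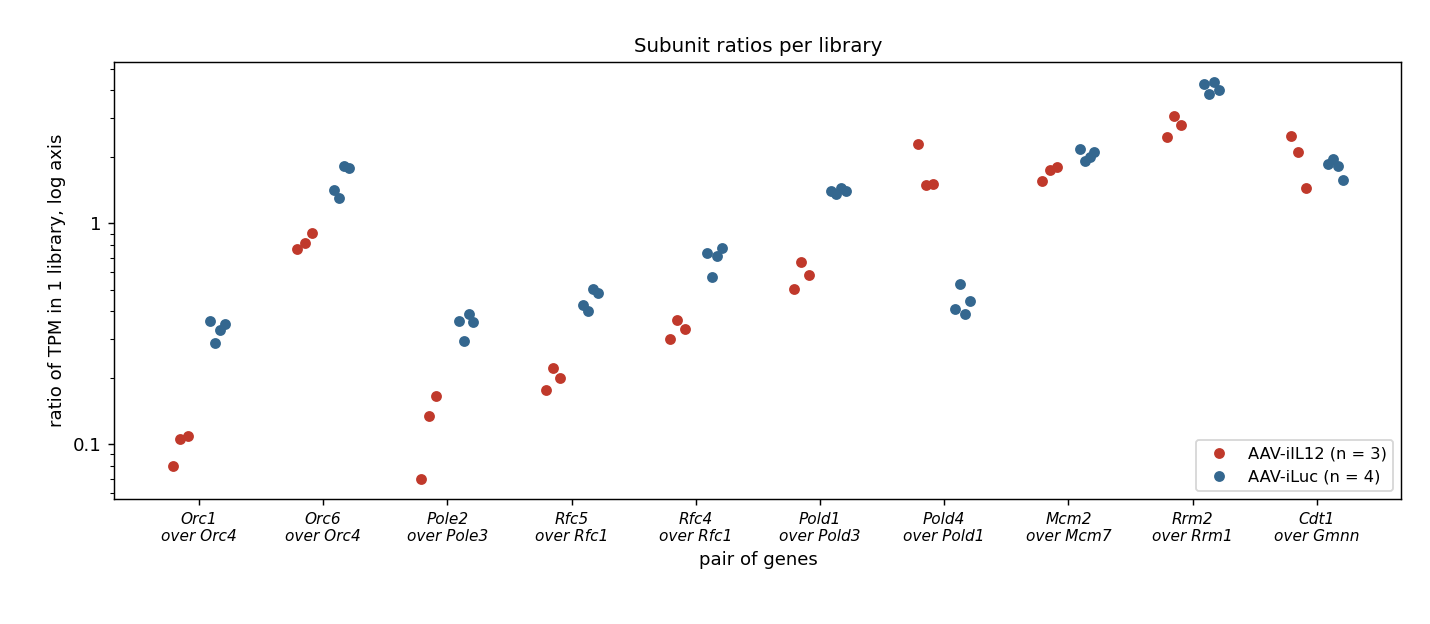
Ratio of the TPM of 2 genes within a library, on a log axis, for 10 pairs of replication genes, with AAV-iIL12 left (n = 3) and AAV-iLuc right (n = 4). Points are libraries. The groups do not overlap except for Cdt1 over Gmnn, and Pold4 over Pold1 alone among the 10 is higher in every AAV-iIL12 library.

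Nucleotide supply genes had the largest median fall of all the complexes, at -1.71 on the log2 scale, and 4 of 4 fell. Rrm2 (ENSMUSG00000020649, chromosome 12, 24758240 to 24764145), the S-phase subunit of ribonucleotide reductase, which makes deoxynucleotides, was the most abundant of the 51 RNAs per length in AAV-iLuc. It averaged 88.1 TPM in AAV-iIL12, where it ranked behind Pole4, Pcna and Rpa1, against 373 TPM in AAV-iLuc. In TMM-scaled CPM, Rrm2 had 44.5, 81.9 and 75.0 CPM in the AAV-iIL12 libraries, against 265, 219, 299 and 267 CPM in the AAV-iLuc libraries (log2 fold change -1.97 ± 0.19, adjusted p = 2.74e-05). The highest AAV-iIL12 value was far below the lowest AAV-iLuc value. Rrm1, the large subunit, had a log2 fold change of -1.41. Rrm2 over Rrm1 was 2.46, 3.07 and 2.79 in AAV-iIL12, against 4.27, 3.86, 4.35 and 4.02 in AAV-iLuc, in TPM, so the ratio was lower in every AAV-iIL12 library. Tk1, the thymidine kinase of S phase, had a mean of 15.9 ± 5.24 CPM in AAV-iIL12 tumours, against 61.4 ± 9.63 CPM in AAV-iLuc tumours, a log2 fold change of -1.94. Tyms, thymidylate synthase, had a mean of 16.0 ± 2.03 CPM in AAV-iIL12 tumours, against 45.2 ± 6.04 CPM in AAV-iLuc tumours, a log2 fold change of -1.49.

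Other genes of nucleotide metabolism, taken from a list picked by known role, did not all follow. Of 12 genes 6 fell, 3 rose and 3 did not pass, where 23.7% of all tested genes fell and 23.5% rose. Shmt1, a folate enzyme that feeds thymidylate synthesis, had 4.33, 7.49 and 5.27 CPM in the AAV-iIL12 libraries, against 21.6, 18.4, 25.3 and 23.8 CPM in the AAV-iLuc libraries (log2 fold change -1.96 ± 0.18, adjusted p = 1.88e-05). Samhd1 (ENSMUSG00000027639, chromosome 2, 156939453 to 156977185), which breaks deoxynucleotide triphosphates down and is known to be induced by interferon, had 357, 316 and 319.7 CPM in the AAV-iIL12 libraries, against 64.1, 46.8, 45.6 and 44.8 CPM in the AAV-iLuc libraries (log2 fold change 2.72 ± 0.12, adjusted p = 9.54e-07). The Samhd1 groups were far apart, and AAV-iLuc replicate 1, the control with the most leukocyte RNA, was the highest control. The log2 fold change of Samhd1 was 2.86 without that library and 2.53 with the leukocyte covariate. Tk2 and Dguok, the mitochondrial kinases that salvage deoxynucleosides, also rose. Tk2 had 20.8, 18.8 and 19.9 CPM in the AAV-iIL12 libraries, against 17.3, 14.8, 14.7 and 14.5 CPM in the AAV-iLuc libraries (log2 fold change 0.37 ± 0.09, adjusted p = 0.00658). Dguok had 26.5, 22.4 and 23.6 CPM in the AAV-iIL12 libraries, against 21.8, 20.1, 17.5 and 20.7 CPM in the AAV-iLuc libraries (log2 fold change 0.27 ± 0.09, adjusted p = 0.0381). The Dguok call ended when any of 5 libraries was left out (replicates 1 and 3 of AAV-iIL12, replicates 2, 3 and 4 of AAV-iLuc; edgeR adjusted p = 0.0544 to 0.129), under library size only (0.148), under upper quartile scaling (0.112) and with the leukocyte covariate (0.216). Rrm2b, the reductase subunit that p53 induces, had a mean of 37.0 ± 1.52 CPM in AAV-iIL12 tumours, against 33.0 ± 2.20 CPM in AAV-iLuc tumours, and did not pass (adjusted p = 0.0814).

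**Figure D5:**
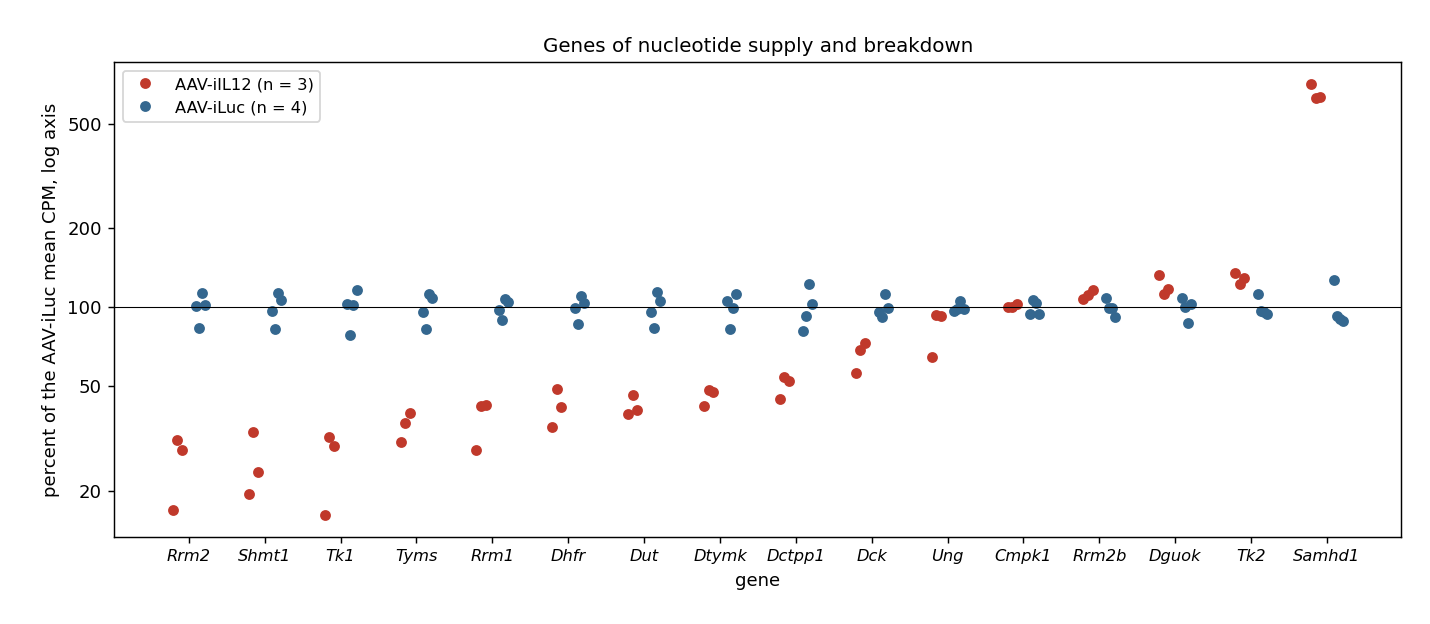
CPM of 16 genes of nucleotide supply and breakdown in percent of the AAV-iLuc mean of each gene, on a log axis, with AAV-iIL12 left (n = 3) and AAV-iLuc right (n = 4). Points are libraries. Genes from Rrm2 to Dck lie below 100 in every AAV-iIL12 library, and Samhd1 lies far above it.

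The wider list held other replication genes chosen by known role. Over all 57 genes of that list, nucleotide genes included, 44 fell, 3 rose and 10 did not pass. Of all genes tested 23.7% fell and 23.5% rose. Among 13 firing and fork factors 12 fell. Ticrr, which loads Cdc45 and is also called treslin, had 4.20, 10.3 and 9.39 CPM in the AAV-iIL12 libraries, against 26.8, 22.5, 28.4 and 26.5 CPM in the AAV-iLuc libraries (log2 fold change -1.70 ± 0.23, adjusted p = 2.03e-04). Topbp1, its partner in firing and in checkpoint signalling, had 60.4, 71.3 and 72.8 CPM in the AAV-iIL12 libraries, against 143, 125, 151 and 151 CPM in the AAV-iLuc libraries (log2 fold change -1.06 ± 0.09, adjusted p = 1.03e-05). All 3 genes of the alternative clamp loaders and unloader fell. Dscc1, a subunit of the loader used in sister chromatid cohesion, had 1.77, 4.18 and 2.31 CPM in the AAV-iIL12 libraries, against 9.72, 8.17, 10.7 and 9.95 CPM in the AAV-iLuc libraries (log2 fold change -1.79 ± 0.24, adjusted p = 2.07e-04). Atad5, which unloads PCNA, had 14.1, 17.5 and 18.8 CPM in the AAV-iIL12 libraries, against 39.1, 33.1, 42.0 and 39.1 CPM in the AAV-iLuc libraries (log2 fold change -1.18 ± 0.11, adjusted p = 2.58e-05). None of these 4 genes had overlapping groups.

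Of 9 flap, RNA removal and topoisomerase genes 8 fell. Exo1, an exonuclease of repair and resection, fell most and had 3.29, 6.25 and 6.76 CPM in the AAV-iIL12 libraries, against 22.5, 22.6, 29.6 and 21.9 CPM in the AAV-iLuc libraries (log2 fold change -2.14 ± 0.21, adjusted p = 2.83e-05). Top2a, the topoisomerase that untangles replicated chromosomes, had 108, 182 and 177 CPM in the AAV-iIL12 libraries, against 449, 324, 423 and 471 CPM in the AAV-iLuc libraries (log2 fold change -1.42 ± 0.19, adjusted p = 1.82e-04). Both were lowest in AAV-iIL12 replicate 1. Of 10 genes of replication-coupled chromatin 8 fell. Pclaf, a PCNA-binding protein, had 10.1, 22.5 and 19.2 CPM in the AAV-iIL12 libraries, against 74.1, 59.7, 82.5 and 80.1 CPM in the AAV-iLuc libraries (log2 fold change -2.09 ± 0.22, adjusted p = 4.41e-05). The maintenance methyltransferase Dnmt1 had 118, 150.3 and 151 CPM in the AAV-iIL12 libraries, against 286, 258, 305 and 312 CPM in the AAV-iLuc libraries (log2 fold change -1.05 ± 0.10, adjusted p = 2.54e-05). The groups of both genes did not overlap. Of 10 genes that control licensing 7 fell. Ccna2, the S-phase cyclin A2, had 18.5, 36.7 and 35.9 CPM in the AAV-iIL12 libraries, against 131, 92.7, 134 and 148 CPM in the AAV-iLuc libraries (log2 fold change -2.05 ± 0.23, adjusted p = 6.38e-05). Its kinase partner Cdk2 did not pass (edgeR adjusted p = 0.926). Cdk2 had 664, 737 and 730.5 CPM in the AAV-iIL12 libraries, against 720.4, 722, 650.3 and 732 CPM in the AAV-iLuc libraries. Its fold change was near 0, and the sign changed with the scaling and with the library left out. Cdk2 ends at 128540900 on chromosome 10, inside the span of Pmel, which starts at 128540064 on the opposite strand. Any effect of this overlap on the Cdk2 counts was not tested.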

How the data were processed

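The authors deposited raw fragment counts per gene, 1 file per library, made with featureCounts 1.6.0 (exons summed by gene, paired fragments, reverse strand) on GENCODE vM32, per the file headers. FastQC 0.11.8, STAR 2.7.9a, the build GRCm39, edgeR and limma are named in the submitters' processing notes. No option for reads mapping to several places or genes was set, so genes with close copies or same-strand overlaps may be undercounted. Symbols were matched by gene identifier through GENCODE vM21 names (52029 of 56953 identifiers, 99.4% of counts), and every row named a gene. Chtf8 matched 2 identifiers and was left out.

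Groups were taken from the titles and treatment labels. Counts were fitted with edgeR 4.0.16 in R 4.3.3 (glmQLFit and glmQLFTest, TMM, filterByExpr) over all 7 libraries, and p-values were adjusted by Benjamini-Hochberg over 13990 genes. CPM is scaled by TMM. TPM uses the exon length in the files and serves to compare genes. Errors are SD between libraries (n = 3 and 4) for levels and SE, from the F statistic, for log2 fold changes. Low counts, down to 38 per gene and library among the 51 genes and to 29 in the wider list, limit precision. Genes described in full were, in each complex, the largest fall, the highest mean TPM, and each gene that rose or did not pass, and in the wider list the genes that rose and each group's largest fall and highest CPM. Other genes named were chosen after their values were seen. The 51 genes, the lists and the tests were chosen with earlier results of these data known. Alternatives were other scalings (median-of-ratios, library size only, upper quartile), other filters (none, or 1 CPM in 3 libraries), limma-voom (limma 3.58.1), DESeq2 1.42.0, the replicate number as a block, a leukocyte covariate and each library left out. The design text of the series counts the libraries as mice, and the labels give no batch.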

Additional observations from a re-analysis of the deposited data

Results flagged for a closer look

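Within the 4 AAV-iLuc libraries, 8 of 112 values tested had 1 library set far apart from the other 3 (Dixon's test at 95%), where chance flags about 1 in 20. AAV-iLuc replicate 3 was set apart at the high end for Cdc6 (38.5 CPM), Fen1 (51.8 CPM), Mcmbp (79.8 CPM) and Exo1 (29.6 CPM), and at the low end for Cdk2 (650.3 CPM). AAV-iLuc replicate 1 was set apart at the high end for Samhd1 (64.1 CPM), Tk2 (17.3 CPM) and the summed leukocyte markers (14.8 CPM).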

How the results depend on the processing

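Falling replication genes numbered 42 to 47 over 16 alternative fits, against 44, and 43 to 45 with 1 library left out, and in every fit 1 rose. Of the 44 genes 42 fell in every fit, all but Pole4 and Orc5, and none of the 51 changed sign in any of them. Genes of the wider list that fell numbered 40 to 47, and those that rose 2 to 4. Fits of its single named genes were added after seeing the data. Cdk2, at 0.009 on the log2 scale, was at -0.083 with library size only, -0.064 with upper quartile scaling, -0.015 with the leukocyte covariate, and between -0.027 and 0.059 with 1 library left out; the cause was not tested. Pole4, Orc5 and Dguok lost their calls, and Orc3, Pole3 and Rfc3 gained one, under the alternatives named with them. Library size only and upper quartile scaling left 36.0% and 38.5% of all calls higher, against 49.8%. With TTTCCCGC and TTTGGCGC only, 34.9% of windowed replication genes held a word, and in the 250 bases before the start alone 23.3% did, against 39.5%. With the replicate block 44 genes fell. Deviations of same-numbered libraries correlated at 0.09, 0.03 and -0.05, and not every library correlated best with its own number. No pairing by number was seen, but so few correlations cannot exclude one. The lowest-count genes, such as Orc1, Gins1 and Gins3, carry the widest counting error.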
